A study of Homo sapiens with 18 samples.

Results

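The mucins and carcinoembryonic antigen-related cell adhesion molecules (CEACAMs) described here are 8 genes, MUC1, MUC4, MUC15, MUC16, MUC20, CEACAM1, CEACAM5 and CEACAM6, of 18404 genes measured on the arrays. They were taken by symbol, each had 1 probe set, and all 8 entered every test, because no filter on low values was applied. The study measured total RNA from the immortalised, non-tumorigenic human breast epithelial line MCF10A on 18 Affymetrix whole-transcript arrays in 6 groups of 3. All cells had been infected with lentivirus at a multiplicity of 5, given 4 days of puromycin at 1.5 µg/ml, left for 7 days or longer, transfected transiently with a cDNA vector by Lipofectamine and kept for 5 days in M5, a medium with estrogen. A hairpin labelled shLATS1+2 (against LATS1 and LATS2) or shLATS1B (against LATS1) was combined with the control cDNA in 2 groups. The other 4 groups carried the non-targeting hairpin shNT with YAP/TAZ plus ESR1 cDNA, with ESR1 cDNA, with YAP/TAZ cDNA, or with the control cDNA. The group with shNT and control cDNA is called the control. The question of each comparison is how a LATS hairpin or an added cDNA changes transcript levels against it. Whether the 3 replicates of a group are separate cultures is not stated, and the p-values therefore reflect only the spread between these samples, which may be technical.

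Membrane mucins are long, heavily O-glycosylated proteins anchored at the apical face of epithelial cells, where they form a hydrated barrier and can signal through their cytoplasmic tails. CEACAMs are members of the immunoglobulin superfamily that mediate adhesion between cells. CEACAM1 spans the membrane and can carry an inhibitory tail, while CEACAM5 and CEACAM6 are held by a lipid anchor. MUC1 and CEACAM1 are normal surface proteins of mammary epithelium. The Hippo kinases LATS1 and LATS2 hold back YAP, the product of YAP1, and TAZ, the product of WWTR1, both partners of TEAD transcription factors. ESR1 is the gene of estrogen receptor alpha.

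The members that moved were MUC1, CEACAM1 and CEACAM6, and each had its own pattern over the groups. MUC1 was lower than in the control with either LATS hairpin and higher with any of the added cDNAs. CEACAM1 was higher than in the control in all 5 other groups and highest with both cDNAs. CEACAM6 was higher with both cDNAs together and with shLATS1+2, and neither single cDNA moved it past the threshold. MUC4, MUC15, MUC16, MUC20 and CEACAM5 did not pass in any comparison (limma, lowest adjusted p 0.091, for MUC20 with both cDNAs).

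Counted over the members, the shares called were close to those of all genes in some comparisons and above them in others. With shLATS1B 1 member rose and 1 fell (25% of 8), where 24% of all genes were called, 12.4% higher and 11.6% lower. With shLATS1+2 2 rose and 1 fell (37.5%), beside 24.8% of all genes, 11.8% higher and 13% lower. Both cDNAs raised 3 and lowered 0 (37.5%), beside 29.4% of all genes, 14.7% in each direction. ESR1 cDNA raised 2 and lowered 0 (25%), beside 18.9% of all genes, 7.04% higher and 11.9% lower. YAP/TAZ cDNA raised 2 and lowered 0 (25%), beside 7% of all genes, 3.16% higher and 3.84% lower. In the interaction of the cDNAs 1 member was called above 0 and 1 below (25%), beside 19.1% of all genes, 11.4% above and 7.68% below. Between the hairpins limma called 0 of 8 members, 0 also at an unadjusted p under 0.05, beside 0.321% of all genes, 0.141% higher and 0.179% lower. Median log2 changes of the 8 members lay between -0.00825 and 0.109, and those of all genes between -0.00933 and 0.00207. These comparisons share the control arrays, and 8 genes are too few to read the shares as a property of the family.

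Some facts on the arrays bear on every value below. Array medians lay between 5.49 and 5.62 log2 units, and arrays of a group correlated with r between 0.993 and 0.999 over the 18404 genes. LATS1 stood at 7.76 ± 0.0904 (SD, n = 3) with shLATS1+2 and 7.66 ± 0.129 with shLATS1B, against 8.86 ± 0.0865 in the control. With both cDNAs, which carry no LATS hairpin, LATS1 was at 9.33 ± 0.0902, above every control array. LATS2 stood at 7.82 ± 0.0900 with shLATS1+2, against 7.73 ± 0.102 in the control, which goes against that label, so shLATS1+2 is used throughout as a label only. A transfected YAP or TAZ was not visible at the probe sets of YAP1 and WWTR1 in the YAP/TAZ arrays (10.79 ± 0.0285 and 9.44 ± 0.0469, against 10.84 ± 0.0314 and 9.57 ± 0.156 in the control), which checks the label only where these probe sets read the cDNA. With both cDNAs YAP1 was at 10.88 ± 0.0893 and WWTR1 at 9.99 ± 0.0796, while WWTR1 was also at 9.80 ± 0.0798 with shLATS1+2 and 10.01 ± 0.0325 with shLATS1B, which carry no YAP/TAZ cDNA. ESR1 stood at 6.03 ± 0.0788 with both cDNAs and 6.47 ± 0.105 with ESR1 cDNA, against 5.52 ± 0.141 in the control, and it was also at 6.40 ± 0.0550 with shLATS1+2 and 6.37 ± 0.108 with shLATS1B. The first principal component (47.3% of the variance) set the arrays with LATS hairpins or both cDNAs, at 9.83 to 22.7, apart from the ESR1, YAP/TAZ and control arrays, at -23.0 to -10.3. No batch is named in the labels, so for a change across that division batch and group cannot be told apart.

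The member probe sets differed widely in brightness. MUC1 had a mean of 9.31 over the 18 arrays, above 84% of gene means, and CEACAM1 a mean of 6.75, above 53.7%. CEACAM6 (5.33), MUC20 (5.41) and MUC4 (5.42) lay above 33.3%, 34.9% and 35.4% of gene means. CEACAM5 (4.95), MUC16 (4.94) and MUC15 (4.85) lay above only 21.1%, 20.9% and 17.4%. The files give no detection call, so a level under 5.21, the percentile 30 of gene means, was read as near background, where a value bounds the transcript from above. Across all arrays the SD of MUC1 (0.788) was above that of 99.4% of genes and the SD of CEACAM1 (0.487) above 97.9%, while that of MUC16 (0.0317) was above only 0.505%. Brightness on an array depends on the probes as well as on the RNA, so these values do not order the genes by transcript number.

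**Figure D1:**
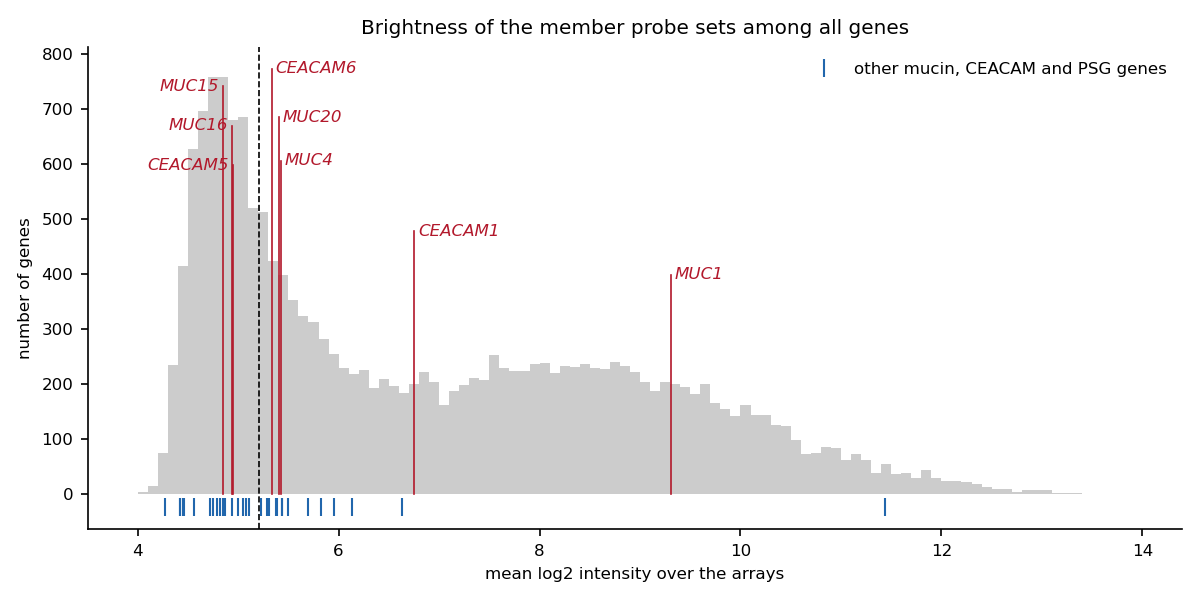
Number of genes by mean log2 intensity over the 18 arrays. Red lines mark the 8 members, blue ticks the other mucin, CEACAM and pregnancy-specific glycoprotein (PSG) genes, and the dashed line the percentile 30 of gene means (5.21). MUC1 and CEACAM1 stand clear of the dim peak that holds the other 6 members.

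**Figure D2:**
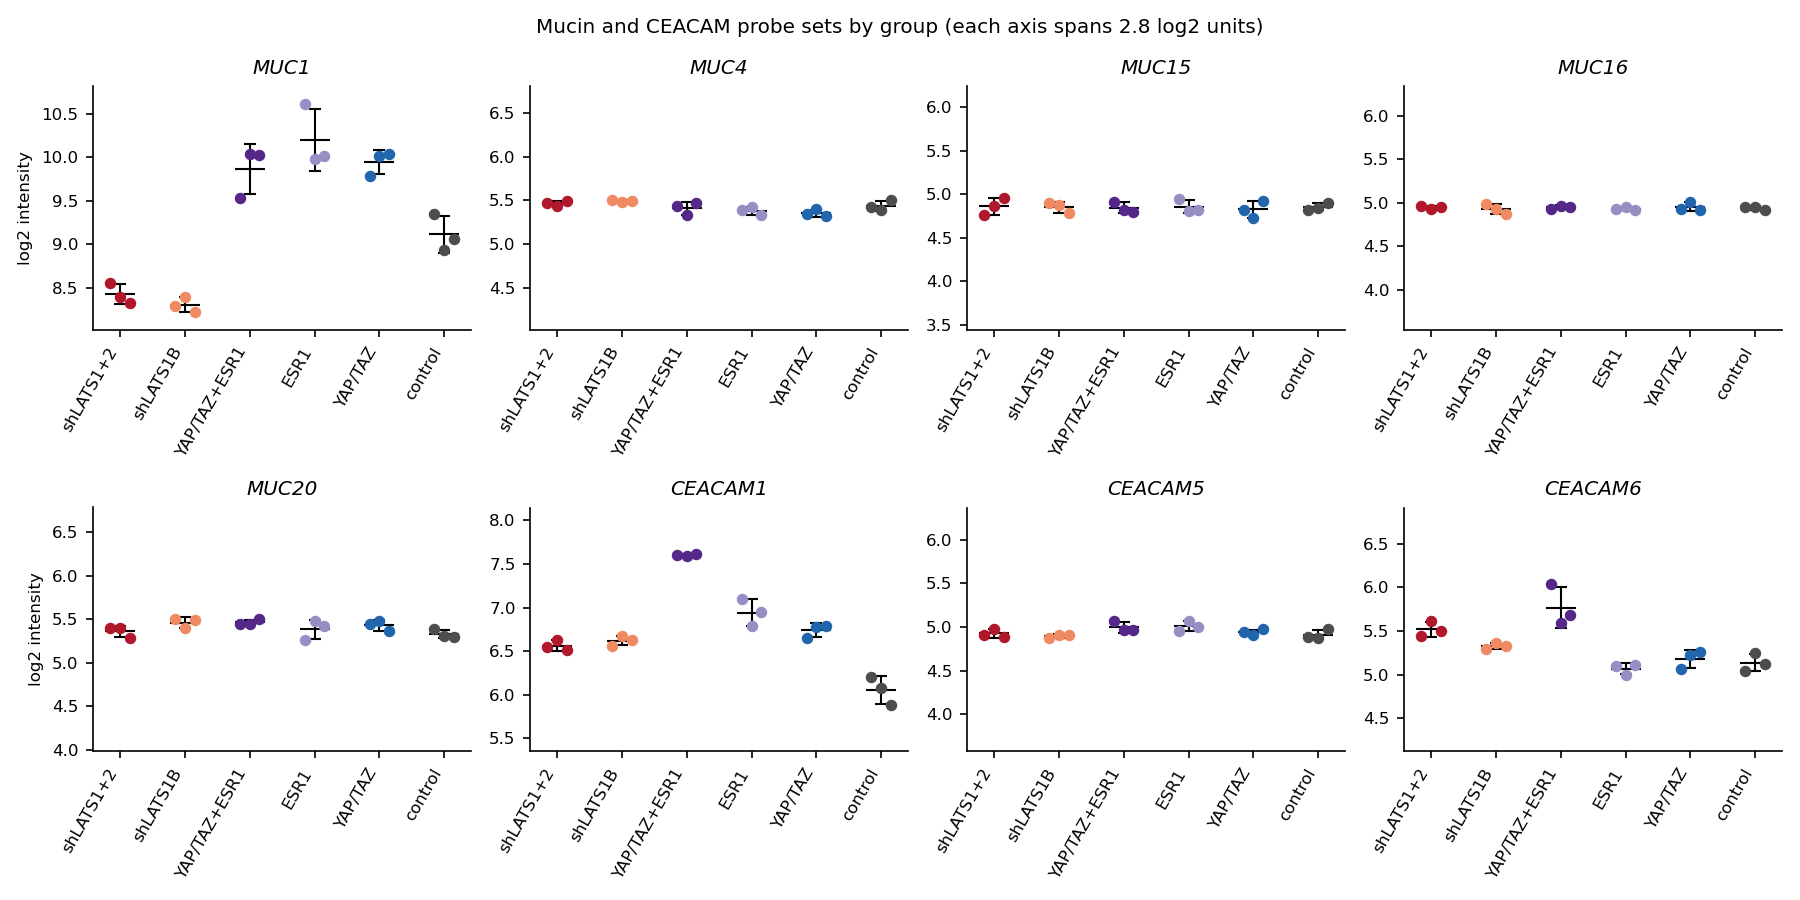
log2 intensity of each member in each array. Points are arrays, bars the mean ± SD of 3, and every vertical axis spans the same range. MUC1, CEACAM1 and CEACAM6 differ between groups, and the other 5 members stay within 0.242 log2 units or less over all 18 arrays.

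MUC1, the transmembrane mucin whose shed part is the tumour marker CA 15-3, parted the LATS hairpins from the cDNAs. Its log2 intensity (probe set 7920642) was 8.55, 8.40 and 8.32 in the shLATS1+2 arrays and 8.29, 8.40 and 8.23 in the shLATS1B arrays. With both cDNAs it was 9.53, 10.04 and 10.03, with ESR1 cDNA 10.61, 9.98 and 10.01, and with YAP/TAZ cDNA 9.78, 10.01 and 10.03. The control arrays had 9.34, 8.93 and 9.06. All 6 LATS hairpin arrays were thus below all 3 control arrays, and all 9 arrays with an added cDNA were above them. The order of the group means was shLATS1B (8.31), shLATS1+2 (8.42), control (9.11), both cDNAs (9.86), YAP/TAZ (9.94) and ESR1 (10.20). Ranges of neighbours overlapped between the 2 hairpins and among the 3 cDNA groups, and did not overlap on either side of the control.

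In the fit, MUC1 fell 1.75-fold with shLATS1B (log2 change -0.81 ± 0.160 SE, adjusted p = 0.0011) and 1.61-fold with shLATS1+2 (-0.69 ± 0.160, adjusted p = 0.0040). It rose 1.78-fold with YAP/TAZ cDNA (0.83 ± 0.160, adjusted p = 0.0035), 2.12-fold with ESR1 cDNA (1.09 ± 0.160, adjusted p = 0.00015) and 1.68-fold with both (0.75 ± 0.160, adjusted p = 0.0015). The hairpins were set directly against each other as well. There the log2 difference of shLATS1+2 minus shLATS1B was 0.12, with a 95% interval of -0.219 to 0.458. MUC1 did not follow the first principal component, since the arrays with both cDNAs lay with the single cDNAs and not with the hairpins. All values are of bulk RNA, in which fewer cells of a type and less RNA per cell cannot be told apart.

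The window before the MUC1 start is shown with matches to short motifs, that of TEAD among them, chosen with the member values known. MUC1 rose with YAP/TAZ cDNA and fell with either LATS hairpin. A part of TEAD factors in the MUC1 or CEACAM1 values was not tested. RefSeq (GRCh38.p14) places the 250 bases before the first listed MUC1 start at chr1:155192916-155193165 on the minus strand. Capitals mark the TEAD core letters GGAATG, found once, on the gene's strand, 140 to 135 bases before the start.
MUC1 promoter: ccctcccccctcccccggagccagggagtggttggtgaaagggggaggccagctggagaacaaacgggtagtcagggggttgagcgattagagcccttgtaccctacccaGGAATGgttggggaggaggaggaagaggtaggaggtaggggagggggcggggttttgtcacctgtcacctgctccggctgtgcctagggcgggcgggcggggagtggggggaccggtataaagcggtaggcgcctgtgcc
The search covered both strands for GGAATG, the interferon-stimulated response element core GAAA followed by 2 free bases and GAAA, the estrogen response element GGTCA followed by 3 free bases and TGACC, and the ETS core CCGGAA. Among 27305 genes with such a window, 11.9% held GGAATG, 3.07% the interferon element, 0.0439% the estrogen element and 14.8% the ETS core. Windows were listed for 6 members, MUC1, MUC4, MUC16, CEACAM1, CEACAM5 and CEACAM6. GGAATG was in 3 of them, in MUC1, MUC4 (opposite strand) and CEACAM1, and MUC4 passed in no comparison. A match is a string of letters and not a site at which a factor was measured.

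CEACAM1, an adhesion receptor whose long form recruits the tyrosine phosphatases SHP-1 and SHP-2, was lowest in the control. Its log2 intensity (probe set 8037205) was 6.54, 6.63 and 6.51 with shLATS1+2 and 6.56, 6.67 and 6.63 with shLATS1B. It was 7.60, 7.59 and 7.61 with both cDNAs, 7.10, 6.78 and 6.94 with ESR1 cDNA and 6.65, 6.78 and 6.79 with YAP/TAZ cDNA. The control arrays had 6.20, 6.07 and 5.88, below each of the 15 others. The 3 arrays with both cDNAs were above all 15 others, with an SD of 0.00995. In order, the means were control (6.05), shLATS1+2 (6.56), shLATS1B (6.62), YAP/TAZ (6.74), ESR1 (6.94) and both cDNAs (7.60). The 4 groups between the ends overlapped each with its neighbour.

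Against the control, CEACAM1 rose 1.48-fold with shLATS1B (0.57 ± 0.0794, adjusted p = 4.1e-05) and 1.42-fold with shLATS1+2 (0.51 ± 0.0794, adjusted p = 0.00012). The rise was 1.61-fold with YAP/TAZ cDNA (0.69 ± 0.0794, adjusted p = 2.7e-05), 1.85-fold with ESR1 cDNA (0.89 ± 0.0794, adjusted p = 8e-07) and 2.93-fold with both (1.55 ± 0.0794, adjusted p = 2.2e-10). Between the hairpins, shLATS1+2 minus shLATS1B was -0.06 with a 95% interval of -0.228 to 0.109. CEACAM1 occurs in splice forms with a long or a short tail, and a single probe set does not part them.

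Interferon-induced genes were also higher than in the control in each of these groups. Of 17 measured, 16 rose and 0 fell in each of the 5 comparisons with the control, where 7% to 29.4% of all genes were called. The one with the largest rise in each was IFIT1, an interferon-induced RNA-binding protein (log2 change 4.01 to 5.54). Their mean level per array was 9.41 to 9.51 with shLATS1+2, 9.27 to 9.41 with shLATS1B, 9.99 to 10.04 with both cDNAs, 9.40 to 9.45 with ESR1 cDNA and 8.95 to 9.03 with YAP/TAZ cDNA, against 7.07 to 7.32 in the control. This list was higher both in the groups where MUC1 fell and in those where it rose. The part of the interferon genes in the CEACAM1 and MUC1 values was not tested.

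The windows before the starts of CEACAM1, CEACAM5 and CEACAM6 are shown together because these related genes differed in their values. They lie at chr19:42528482-42528731 (minus strand), chr19:41708376-41708625 (plus strand) and chr19:41755280-41755529 (plus strand) in RefSeq's GRCh38.p14. Capitals mark the interferon element core, 116 to 107 bases before the CEACAM1 start, and GGAATG, 91 to 86 bases before it.
CEACAM1 promoter: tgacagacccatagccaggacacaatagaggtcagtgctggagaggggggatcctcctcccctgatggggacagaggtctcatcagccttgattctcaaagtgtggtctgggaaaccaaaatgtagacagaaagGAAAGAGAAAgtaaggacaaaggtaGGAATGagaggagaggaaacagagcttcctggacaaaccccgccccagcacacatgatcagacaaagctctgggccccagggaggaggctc
CEACAM5 promoter: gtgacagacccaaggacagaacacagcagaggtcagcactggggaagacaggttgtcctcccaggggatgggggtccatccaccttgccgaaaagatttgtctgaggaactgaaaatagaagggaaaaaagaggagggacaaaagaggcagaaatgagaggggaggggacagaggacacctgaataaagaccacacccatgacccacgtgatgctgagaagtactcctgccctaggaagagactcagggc
CEACAM6 promoter: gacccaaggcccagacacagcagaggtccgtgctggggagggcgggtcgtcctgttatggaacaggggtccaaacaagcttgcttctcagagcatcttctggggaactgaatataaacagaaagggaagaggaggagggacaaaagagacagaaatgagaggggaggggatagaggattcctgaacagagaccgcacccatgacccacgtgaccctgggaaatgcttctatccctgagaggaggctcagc
In a pairwise global alignment, CEACAM5 and CEACAM6 had the same base at 78.5% of aligned positions, CEACAM1 and CEACAM6 at 74.4%, and CEACAM1 and CEACAM5 at 70.5%. The other 12 pairs of the 6 windows had 46.9% to 60.8%. None of the 4 motifs was found in the CEACAM5 or CEACAM6 window. That says only that these letters are not in these 250 bases.

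CEACAM6, a lipid-anchored adhesion protein that is overexpressed in many carcinomas, was near background in 3 groups. Its log2 intensity (probe set 8029098) was 5.45, 5.62 and 5.50 with shLATS1+2 and 5.30, 5.37 and 5.33 with shLATS1B. It was 6.04, 5.59 and 5.68 with both cDNAs, 5.09, 5.00 and 5.11 with ESR1 cDNA and 5.06, 5.22 and 5.26 with YAP/TAZ cDNA, against 5.05, 5.24 and 5.12 in the control. All 9 arrays with a LATS hairpin or both cDNAs were above all 9 others, as on the first principal component. The means ran from ESR1 (5.07) through control (5.14), YAP/TAZ (5.18), shLATS1B (5.33) and shLATS1+2 (5.52) to both cDNAs (5.77). The first 3 overlapped, as did the last pair, and shLATS1B overlapped neither neighbour.

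CEACAM6 rose 1.55-fold with both cDNAs (0.63 ± 0.0920, adjusted p = 4.7e-05) and 1.30-fold with shLATS1+2 (0.38 ± 0.0920, adjusted p = 0.0049). With shLATS1B the change was 0.19 ± 0.0920 (adjusted p = 0.16), with all 3 arrays above the control. With YAP/TAZ cDNA it was 0.04 (95% interval -0.151 to 0.239) and with ESR1 cDNA -0.07 (-0.264 to 0.126). The hairpins differed by 0.19 (shLATS1+2 minus shLATS1B, adjusted p = 0.43), so the call with one hairpin and not with the other does not show that the hairpins differ. Because the control mean is near background, these folds may understate the change of the transcript.

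**Figure D3:**
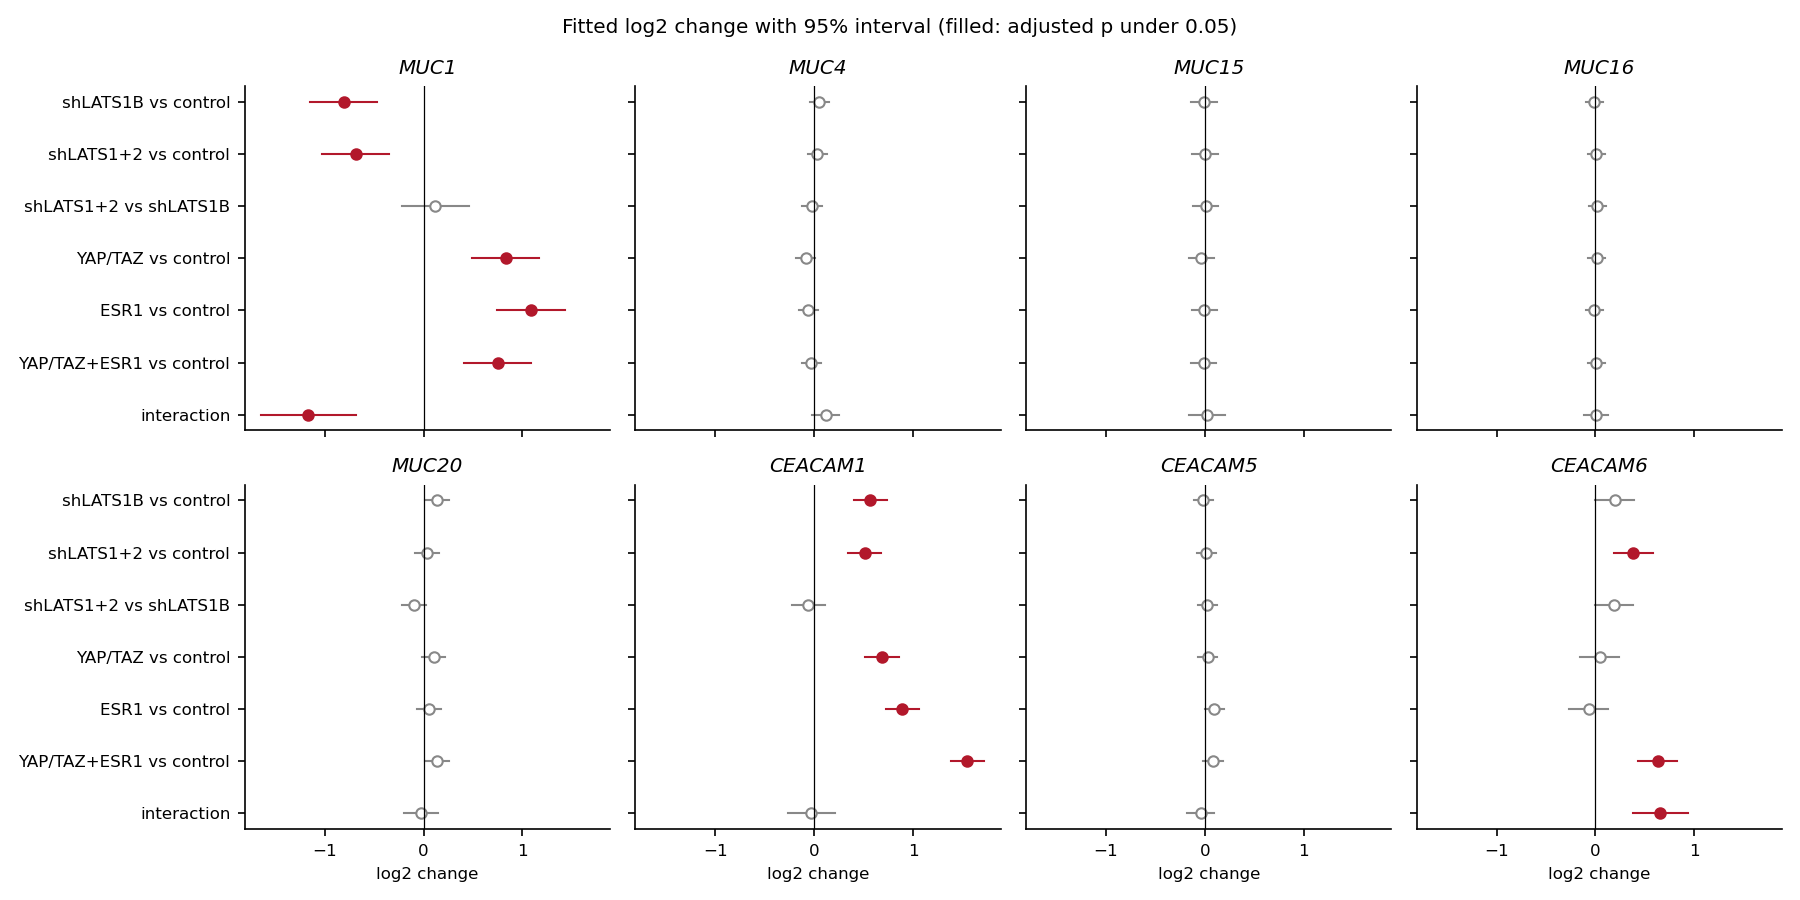
Fitted log2 change of each member with its 95% interval in the 7 comparisons. Filled red points passed at an adjusted p under 0.05. MUC1 lies on both sides of 0, CEACAM1 at or above 0.51 in the 5 comparisons with the control, and the points of MUC4, MUC15, MUC16, MUC20 and CEACAM5 are open throughout.

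The YAP/TAZ and ESR1 cDNAs were compared alone and together by the interaction. It subtracts the log2 change with YAP/TAZ cDNA in the absence of ESR1 cDNA from that in its presence. The ESR1 probe set stood at 6.03 ± 0.0788 with both cDNAs and 6.47 ± 0.105 with ESR1 cDNA alone. YAP1 and WWTR1 were not above the control with YAP/TAZ cDNA. The part of unlike cDNA levels in the interaction was not tested. Arrays with both and with single cDNAs also lie across the first principal component, where batch and group cannot be told apart. MUC1 had a negative interaction of -1.17 ± 0.226 (adjusted p = 0.0017, 3 arrays a group): each cDNA alone raised it, and with both it stood no higher (9.86) than with ESR1 cDNA (10.20) or YAP/TAZ cDNA (9.94) alone. CEACAM6 had a positive one of 0.66 ± 0.130 (adjusted p = 0.0020), with both cDNAs above either single cDNA in every array. For CEACAM6 the ESR1 (5.07), YAP/TAZ (5.18) and control (5.14) means are all near background, so the term is a difference between measured intensities and does not settle whether the changes of the transcript add up. CEACAM1 had an interaction of -0.03, with a 95% interval of -0.266 to 0.210, so its changes with the single cDNAs added up on the log2 scale to within that interval. In the same term 1 of the 17 interferon-induced genes was called above 0 and 13 below, beside 11.4% and 7.68% of all genes. The part of the interferon-induced genes in the MUC1 and CEACAM6 values was not tested.

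**Figure D4:**
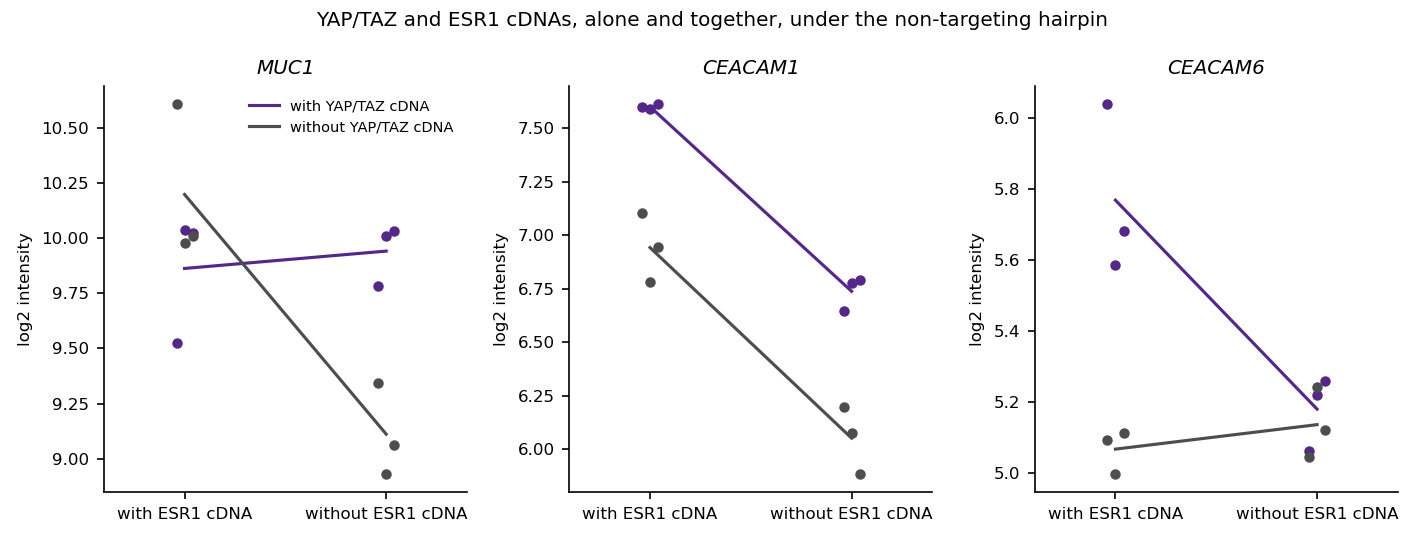
log2 intensity of MUC1, CEACAM1 and CEACAM6 with and without ESR1 cDNA, in purple with YAP/TAZ cDNA and in grey without it, all under the non-targeting hairpin. Points are arrays and lines join group means. The lines cross for MUC1, run nearly parallel for CEACAM1, and part only where ESR1 and YAP/TAZ cDNA were combined for CEACAM6.

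Of the members that did not pass, CEACAM5, MUC15 and MUC16 were near background, and MUC4 and MUC20 were slightly brighter than CEACAM6. MUC20, a mucin that binds the receptor MET, had the largest changes among them, 0.13 ± 0.0567 with both cDNAs (adjusted p = 0.091) and 0.13 ± 0.0567 with shLATS1B (adjusted p = 0.11). Its 3 arrays lay above the control in both comparisons, at 5.44, 5.45 and 5.50 with both cDNAs and 5.50, 5.40 and 5.49 with shLATS1B, against 5.39, 5.31 and 5.29. MUC20 has close copies in the genome that a probe set may not part from it. MUC4, which binds the receptor ERBB2, ranged from 5.32 to 5.51 over all arrays, with its lowest group mean under YAP/TAZ cDNA (5.35) and its highest under shLATS1B (5.49). Its 6 groups overlapped each with its neighbour. CEACAM5, the carcinoembryonic antigen itself, ranged from 4.87 to 5.07, with 0.09 ± 0.0455 under ESR1 cDNA (adjusted p = 0.17). MUC15 (4.73 to 4.95) and MUC16 (4.87 to 5.01), which carries the CA125 antigen and binds mesothelin, had log2 changes between -0.03 and 0.01 against the control. For CEACAM5, MUC15 and MUC16, which were under 5.21 in all 18 arrays, the values give only an upper bound on the transcript.

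The genes most like each called member were taken by Pearson's r over the 18 arrays, which fall into 6 groups and share their normalization. For MUC1 they were EPB41L4A (r = 0.982), CCDC80 (0.965) and SLC38A7 (0.964). EPB41L4A averaged 4.95 with shLATS1+2, 4.83 with shLATS1B, 6.34 with both cDNAs, 6.62 with ESR1 cDNA and 6.30 with YAP/TAZ cDNA, against 5.41 in the control. Both hairpin means are under 5.21 and so near background, where the size of the fall is not known. For CEACAM1 they were ZNFX1 (0.979), PER2 (0.966) and HELZ2 (0.960). ZNFX1 averaged 9.80 with both cDNAs and 7.97 in the control. For CEACAM6 they were CLCA2 (0.924), PTGR1 (0.909) and ALCAM (0.905). CLCA2 averaged 10.62 with both cDNAs and 9.94 in the control. Between the called members, r was 0.582 for CEACAM1 and CEACAM6, 0.517 for MUC1 and CEACAM1, and -0.215 for MUC1 and CEACAM6. For the 5 other members the closest gene had r between 0.741 and 0.829, and no gene exceeded 0.9.

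Many of the other mucin, CEACAM and PSG genes were dim. Of 16 further genes counted with the mucins, 8 had a mean under percentile 30, and of 15 further CEACAM and PSG genes 9 did. Called genes counted with the mucins numbered 1 of 16 with either hairpin, 2 with YAP/TAZ cDNA, 3 with ESR1 cDNA and 3 with both. Among all genes, 24% were called with shLATS1B, 24.8% with shLATS1+2, 7% with YAP/TAZ cDNA, 18.9% with ESR1 cDNA and 29.4% with both. The called genes counted with the mucins were MCAM, CD164 and MUCL1. MCAM is an adhesion molecule also called MUC18, CD164 a sialomucin of endosomes and the cell surface, and MUCL1 a small mucin-like gene. MCAM rose 1.74-fold with both cDNAs (0.80 ± 0.0562, adjusted p = 1.2e-08) and CD164 1.24-fold (0.31 ± 0.0479, adjusted p = 9.9e-05), while the MUCL1 intensity was lower (-0.17 ± 0.0595, adjusted p = 0.036). MCAM was also higher with ESR1 cDNA (0.22 ± 0.0562, adjusted p = 0.011). CD164 was also higher with YAP/TAZ cDNA (0.23 ± 0.0479), ESR1 cDNA (0.31 ± 0.0479) and shLATS1+2 (0.20 ± 0.0479). MUCL1 was also lower with ESR1 cDNA (-0.32 ± 0.0595), YAP/TAZ cDNA (-0.28 ± 0.0595) and shLATS1B (-0.23 ± 0.0595), but its highest value over the 18 arrays was 5.14, near background, so no fold is given. Among the other CEACAM and PSG genes, the CEACAM7 intensity was lower with shLATS1+2 (-0.12, adjusted p = 0.030), within a range of 4.48 to 4.65 over all arrays that is wholly near background, and PSG4 rose by 0.37 with YAP/TAZ cDNA (adjusted p = 0.033) and 0.33 with both (adjusted p = 0.019), and no other passed. Paralogs of this family are alike in sequence, so a dim PSG or CEACAM probe set may share signal with another.

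Enzymes that build mucin-type O-glycans moved in both directions. GalNAc-transferases (GALNT genes) start the chain on serine or threonine, core enzymes extend it, and sialyl- and fucosyltransferases cap it. Of 29 measured, 6 rose and 6 fell with shLATS1B, 7 rose and 5 fell with shLATS1+2, 7 rose and 5 fell with both cDNAs, 3 rose and 5 fell with ESR1 cDNA, and 0 rose and 2 fell with YAP/TAZ cDNA. The shares of all genes called were, in that order, 24%, 24.8%, 29.4%, 18.9% and 7%. The list's median log2 change was between -0.00523 and 0.0142 in these comparisons. ST3GAL1, which caps core 1 with sialic acid, averaged 6.62 with shLATS1+2, 6.77 with shLATS1B, 6.89 with both cDNAs and 7.78 with ESR1 cDNA, against 7.39 in the control. It fell 1.70-fold with shLATS1+2, 1.53-fold with shLATS1B and 1.41-fold with both cDNAs, and rose 1.32-fold with ESR1 cDNA. ST6GALNAC2, another sialyltransferase, rose 1.64-fold with both cDNAs (0.72 ± 0.0769) and fell 1.39-fold with ESR1 cDNA alone (-0.48 ± 0.0769), an interaction of 1.38 ± 0.109 (adjusted p = 1.6e-07). GALNT14 fell in all 5 comparisons with the control, by 0.34 to 0.71 on the log2 scale. FUT3, the Lewis fucosyltransferase, rose 1.61-fold with both cDNAs, 1.53-fold with shLATS1B and 1.43-fold with shLATS1+2, from a control mean of 5.04 that is near background. GALNT7 rose 1.47-fold with both cDNAs and 1.41-fold with shLATS1+2.

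**Figure D5:**
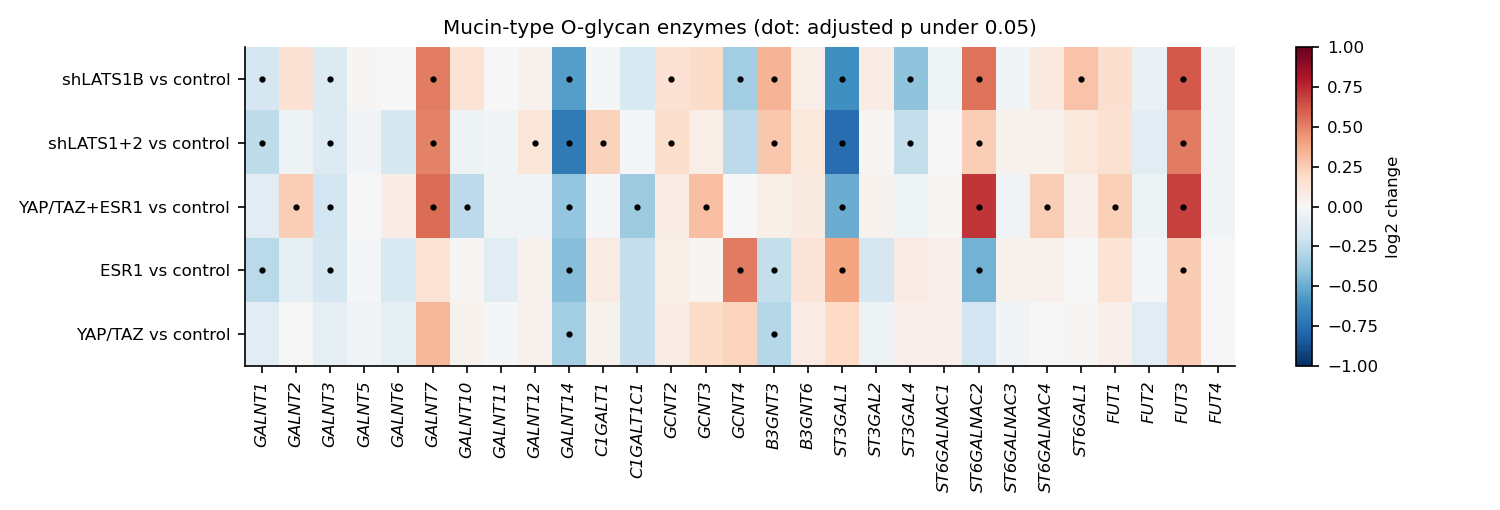
log2 change of the 29 measured O-glycan enzymes against the control, by group. Red is higher, blue is lower and a dot marks an adjusted p under 0.05. GALNT14 is blue in every row, and ST6GALNAC2 is red with both cDNAs and blue with ESR1 cDNA.

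Binding partners and sheddases of the members were counted from a list of 20 genes, all measured. With shLATS1B 6 rose and 0 fell, with shLATS1+2 5 rose and 1 fell, with both cDNAs 8 rose and 1 fell, with ESR1 cDNA 3 rose and 5 fell, and with YAP/TAZ cDNA 0 rose and 2 fell. Beside these stand 24%, 24.8%, 29.4%, 18.9% and 7% of all genes called, in that order. PTPN6, which encodes the CEACAM1 partner SHP-1, rose 1.48-fold with both cDNAs (0.56 ± 0.0835, adjusted p = 5.5e-05), 1.43-fold with shLATS1B and 1.34-fold with shLATS1+2. PTPN11, which encodes the partner SHP-2, fell 1.27-fold with ESR1 cDNA (-0.35 ± 0.0935, adjusted p = 0.015), where CEACAM1 rose. MET, the MUC20 partner, fell 1.23-fold with shLATS1+2 (-0.29 ± 0.0747, adjusted p = 0.0073). ERBB2, the MUC4 partner, rose 1.38-fold with both cDNAs and 1.29-fold with shLATS1B. The sugar-binding lectin LGALS9 rose 2.06-fold with both cDNAs (1.04 ± 0.109, adjusted p = 1.3e-06) and 1.82-fold with ESR1 cDNA, from a control mean of 4.93, near background. MSLN, the mesothelin that binds MUC16, rose 1.39-fold with shLATS1+2 (0.47 ± 0.101, adjusted p = 0.0022). MMP14, a protease that can shed MUC1, fell 1.32-fold with ESR1 cDNA and 1.20-fold with YAP/TAZ cDNA. Its interaction was 0.92 ± 0.0874 (adjusted p = 1.5e-06), so these falls did not add up with both cDNAs.

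Genes of the apical membrane and of secretory epithelium were called at 11 of 20 with shLATS1B (7 higher), 11 with shLATS1+2 (6 higher), 11 with both cDNAs (7 higher), 7 with ESR1 cDNA (5 higher) and 3 with YAP/TAZ cDNA (3 higher). In the same order, 24%, 24.8%, 29.4%, 18.9% and 7% of all genes were called. PODXL, an anti-adhesive sialomucin-like protein of the apical surface, rose 3.68-fold with shLATS1B (1.88 ± 0.110), 2.89-fold with shLATS1+2, 2.34-fold with both cDNAs, 1.67-fold with ESR1 cDNA and 1.61-fold with YAP/TAZ cDNA. CD24, a small mucin-type glycoprotein, fell 1.64-fold with shLATS1B (-0.71 ± 0.0600) and rose 1.93-fold with ESR1 cDNA (0.95 ± 0.0600) and 1.53-fold with YAP/TAZ cDNA (0.61 ± 0.0600), with an interaction of -1.96 ± 0.0849. With both cDNAs CD24 fell by 0.40 on the log2 scale, where MUC1 rose. LCN2, a secreted lipocalin, had the largest rise with both cDNAs (14-fold, 3.81 ± 0.0843, adjusted p = 6e-15), and ELF3, an epithelial ETS factor, the largest with shLATS1+2 (5.57-fold, 2.48 ± 0.114) and shLATS1B (4.85-fold, 2.28 ± 0.114).

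Cell identity was read from marker genes. Of mammary epithelial markers 9 were measured, with means between 8.98 and 12.50, and their mean level per array was 10.81 to 10.94 with shLATS1+2, 10.97 to 11 with shLATS1B, 10.91 to 11.04 with both cDNAs, 10.89 to 11.20 with ESR1 cDNA and 11.06 to 11.11 with YAP/TAZ cDNA, against 11.09 to 11.25 in the control. Of the 9, 3 rose and 5 fell with shLATS1B and with shLATS1+2, 4 rose and 5 fell with both cDNAs, 1 rose and 2 fell with ESR1 cDNA, and 0 rose and 2 fell with YAP/TAZ cDNA. All genes were called at 24%, 24.8%, 29.4%, 18.9% and 7% in the same order. The luminal keratin KRT8 rose 2.14-fold with shLATS1B, 1.87-fold with shLATS1+2 and 1.56-fold with both cDNAs, and the epithelial adhesion molecule EPCAM rose 1.60-fold, 1.64-fold and 1.55-fold in the same comparisons. The basal keratin KRT14 fell 5.96-fold with shLATS1B, 5.15-fold with shLATS1+2, 4.84-fold with both cDNAs, 1.71-fold with ESR1 cDNA and 1.65-fold with YAP/TAZ cDNA, and the part of these markers in the member values was not tested. Of 13 leukocyte markers 7 were under percentile 30, among them PTPRC, the pan-leukocyte antigen CD45, at 4.44. The leukocyte mean level was 5.65 to 5.73 with shLATS1+2, 5.66 to 5.71 with shLATS1B, 5.72 to 5.77 with both cDNAs, 5.63 to 5.66 with ESR1 cDNA and 5.61 to 5.67 with YAP/TAZ cDNA, against 5.53 to 5.62 in the control. CD14, which epithelial cells can also express, was the one of them called in each of these comparisons, and CSF1R was called with ESR1 cDNA and with both. Of 10 endothelial and fibroblast markers 7 were under percentile 30. Their mean level was 5.22 to 5.27 with shLATS1+2, 5.19 to 5.24 with shLATS1B, 5.17 to 5.19 with both cDNAs, 5.21 to 5.26 with ESR1 cDNA and 5.22 to 5.26 with YAP/TAZ cDNA, against 5.30 to 5.46 in the control. DCN was lower in all 5 groups than in the control, and PECAM1 was higher with either hairpin and with both cDNAs. The part of the leukocyte, endothelial and fibroblast markers in the member values was not tested.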

How the data were processed

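RNA of 18 samples in 6 groups of 3 was read on whole-transcript arrays. The deposited values are log2 intensities, 1 column per array for 32321 probe sets. They were made by the authors with the R package affy, per the submitters' processing notes, with background correction, normalization, summary method and genome build not given in the sources used here. Groups came from the sample titles. A probe set was used where the platform annotation gave it 1 symbol (19158; 1388 had several and 11775 none), and symbols were updated through RefSeq gene identifiers (19128 matched). Genes with several probe sets (637 of 18404) were represented by their brightest one, with no filter on brightness. 1 linear model with a mean per group was fitted to all arrays in R 4.3.3 with limma 3.58.1 (12 residual and 3.94 prior degrees of freedom). Tests were two-sided, p-values were adjusted by Benjamini-Hochberg over the genes of each comparison, and the threshold was an adjusted p of 0.05. The script was tested on simulated data.

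Members, lists, tests and alternatives were chosen with earlier results of these data known, so no list is independent evidence. Named genes are the members, the targeted genes, the 3 genes most like each member, and up to 4 called genes with the largest change per list and comparison. GALNT14 and CD24 are also given with both cDNAs, outside that rule, after their values were seen. Promoter windows came from RefSeq and were searched and aligned in Python 3.11.15 with Biopython 1.88, and the first listed start was used for MUC1 and MUC16, which have 2. Array number limits the precision. Same-numbered replicates were not paired. Of 45 same-numbered pairs of arrays from different groups, 13 had deviations correlated above 0.1, beside 39 of 90 different-numbered pairs. The median r was -0.0832 for same-numbered and 0.063 for different-numbered pairs. The alternatives were other probe set rules, scalings, filters, moderation and weights, a replicate block, a fold minimum, the compared groups alone, and leaving out each array.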

Additional observations from a re-analysis of the deposited data

Results flagged for a closer look

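The change with YAP/TAZ cDNA differed between cells with and without ESR1 cDNA for 2 members, by the interaction term of the fit across all genes. For MUC1 the interaction was -1.17 ± 0.226 on the log2 scale (limma, adjusted p = 0.0017). The second member was CEACAM6, with 0.66 ± 0.130 (adjusted p = 0.0020), where the ESR1, YAP/TAZ and control means (5.07, 5.18 and 5.14) are under 5.21 and so near background. Both kept their sign and passed in each of 22 alternatives, with values from -1.28 to -0.961 for MUC1 and 0.522 to 0.747 for CEACAM6. The probe set rules, brightness filter, moderation, replicate block, compared groups alone and fold minimum could not change these values, only the call. The ranges therefore come from the scalings, the array weights and the left-out arrays. The arrays with both cDNAs and those with single cDNAs lie on opposite sides of the first principal component, so batch and group cannot be told apart for either. Groups of 3 arrays are too small to examine single arrays as outliers.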

How the results depend on the processing

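Of 923 member changes under 28 alternatives, 916 kept their side of the threshold, 3 lost a call and 4 gained one. No called change turned its sign. Each member has 1 probe set, so the probe set rules left its values as they were. The fold minimum reused the main fit, and most of the 923 changes were not called there. Much of the 916 was thus fixed in advance. Among changes called in neither fit, 59 turned their sign. The 3 losses came with a minimum of 1.5-fold, which leaves 1 member with shLATS1B and 1 with shLATS1+2, because CEACAM1 (0.57 and 0.51) and CEACAM6 (0.38) lie under it. Gained were MUC4 in the interaction with quantile normalization (0.19, adjusted p = 0.045), CEACAM6 with shLATS1B fitted on the compared groups alone (0.19, adjusted p = 0.043), and MUC20 with array weights, under shLATS1B (0.14, adjusted p = 0.034) and both cDNAs (0.15, adjusted p = 0.024). Member counts were the same with each array left out (2 with shLATS1B, 3 with shLATS1+2, 0 between hairpins, 2 with YAP/TAZ, 2 with ESR1, 3 with both cDNAs and 2 in the interaction). With the replicate block, the members called were also 2, 3, 0, 2, 2, 3 and 2. The labels share only replicate numbers, and 4 of 18 arrays correlated best with their own number. Of the 48 group means of members, 43 moved by less than 1 SD with arrays centred on their medians and 47 with quantile normalization, with largest shifts of 0.0392 and 0.0435. Counts of all genes called moved with the 1.5-fold minimum to 926 with shLATS1B, 940 with shLATS1+2, 20 between hairpins, 191 with YAP/TAZ, 446 with ESR1, 1335 with both cDNAs and 1277 in the interaction, against 4415, 4564, 59, 1289, 3487, 5414 and 3512. Array weights gave 248 between hairpins and 5868 in the interaction, and the compared groups alone gave 1126 with ESR1. With an array left out, the counts were 3588 to 4459, 3805 to 4078, 33 to 54, 848 to 1246, 2299 to 5461, 4469 to 5522 and 2593 to 5607 in the same order. The count with ESR1 cDNA was 2299 without ESR1 array 2 and 5461 without ESR1 array 1. The interaction gave 5607 without ESR1 array 1, and the hairpins 33 without shLATS1B array 2, 35 without shLATS1B array 3 and 37 without shLATS1+2 array 3. The YAP/TAZ count was 848 without YAP/TAZ array 2. The causes were not tested. Signal near background limits what can be said of MUC15, MUC16 and CEACAM5, and of CEACAM6 in the ESR1, YAP/TAZ and control arrays.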
